A study of Mus musculus with 16 samples.

Results

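The 10 genes described here encode the sodium-coupled carriers and exchangers that move phosphate, sulphate, dicarboxylates and bicarbonate across the proximal tubule cell. They are Slc34a1, Slc34a3, Slc20a1, Slc20a2, Slc13a1, Slc13a2, Slc13a3, Slc4a4, Slc9a3 and Slc26a1. A gene was taken when the probe table gave a row of the value table its symbol and no other. Each of the 10 had exactly 1 such row, so no choice among rows was needed, and together they are 10 of the 19938 genes tested. All 10 passed a filter that keeps genes above a log2 level of 6 in at least 3 arrays.

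The study hybridised RNA of halved mouse kidneys to 16 whole-transcript arrays of 1 colour, each a labelled biological replicate. Its groups ask what loss of Vhl in renal tubule cells does to RNA levels in healthy and in injured kidneys. The product of Vhl, the von Hippel-Lindau protein, sends hypoxia-inducible factors (HIF) to the proteasome. All mice belonged to 1 transgenic line in which doxycycline, acting through a Pax8-driven transactivator, deletes Vhl in tubule cells. The Control group (n = 3) had no treatment. In the VHL-KO group (n = 3) doxycycline was given under the skin 4 days before death, at 0.1 mg for every 10 g of mouse. In the AKI group (n = 5) a hind limb muscle was injected with glycerol (50%, 0.05 ml for every 10 g), which breaks down muscle (rhabdomyolysis) and injures the kidney, and water was withheld from 20 h before to 24 h after it. VHL-KO/AKI mice (n = 5) received both treatments. Mice not given doxycycline carry the genotype label wt although they belong to the same line. There was no group with doxycycline and intact Vhl, and none with water withdrawal and no glycerol. Both sexes were used, the sex of each animal is not labelled, and ages are not given in the labels.

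The proximal tubule reclaims most of the filtered phosphate, bicarbonate, sulphate and citrate. Sodium enters across the apical brush border together with phosphate or dicarboxylates, or in exchange for protons that drive bicarbonate reclamation, and bicarbonate and sulphate leave through basolateral carriers. Brush border phosphate carriers are withdrawn under parathyroid hormone and FGF23, and loss of NaPi-IIa or NaPi-IIc function is known to cause renal phosphate wasting, as loss of NBCe1 is known to cause proximal tubular acidosis.

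Levels are on the deposited log2 scale, so that differences are log2 fold changes. A gene is called when its Benjamini-Hochberg adjusted p in limma, over all genes tested, is under 0.05. The comparisons share arrays: AKI and VHL-KO are both set against the same Control arrays, and VHL-KO/AKI enters 2 comparisons. Vhl itself was at 7.06 ± 0.04 (SD, n = 3) in Control, 6.65 ± 0.04 (n = 3) in VHL-KO, 7.16 ± 0.12 (n = 5) in AKI and 6.5 ± 0.12 (n = 5) in VHL-KO/AKI. It was lower in every knockout array than in every array with intact Vhl, and in limma it fell by 0.67 in VHL-KO/AKI against AKI (adjusted p = 9.98e-05) whereas the difference of -0.40 in VHL-KO against Control missed the threshold (adjusted p = 0.0565). AKI 4 stood apart, with a mean correlation of 0.975 with the other AKI arrays against 0.984 to 0.986 for the rest of its group. Sex-linked signal followed injury. Xist, the RNA that silences an X chromosome in female cells, ranged from 10.23 to 11.47 without injury and from 4.16 to 5.08 after it, and a Y-linked trio (Kdm5d, Uty and Eif2s3y) averaged 4.81 to 4.88 in VHL-KO and 7.77 to 8.26 in the injured groups. Control 3 held both signals, with this Y-linked mean at 7.43, while the carriers in it differed from the other controls by between -0.12 (Slc13a3) and 0.38 (Slc26a1). Injury and sex-linked signal cannot be told apart in any comparison of injured with uninjured arrays. In whole kidney RNA, fewer cells of a type and less RNA per cell cannot be told apart either. Proximal tubule markers were abundant in every array (mean of 12 genes that are no member, 9.88 to 11.84), whereas the mean of 5 skeletal muscle genes lay between 4.96 and 5.31.

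The promoter windows of the carriers were searched for ACGTG, a HIF core motif, since Vhl deletion stabilises HIF. They were also searched for the palindrome CACGTG, known as an E-box, which contains ACGTG. RefSeq windows (GRCm38.p6) of the 250 bases before an annotated start were given for 8 of the 10 genes, as 11 windows, while Slc20a2 and Slc13a1 had no entry. The palindrome, read on both strands, occurred in 4 of these 11 windows, belonging to Slc20a1, Slc13a3, Slc9a3 and Slc26a1. It occurred in 6.02% of all 32851 windows of this length. ACGTG is part of the palindrome, so it was found in the same 4 windows, and it was found in no other carrier window. It occurred in 16.6% of all windows. The matches therefore do not tell a HIF core motif from an E-box. The AP-1 motif TGANTCA was found in Slc26a1 alone (6.75% of all windows) and GTTAAT, part of the HNF1 motif, in Slc34a1 alone (6.43%). The motifs were chosen with results of these data known, a match is letters in a window, and no factor binding was measured. The 4 windows are printed 5′ to 3′ on the gene's strand because the palindrome is shared by a gene that rose with injury (Slc20a1) and 3 that fell, with CACGTG in capitals. They are chr2:129198523-129198772 on the plus strand for Slc20a1, with the palindrome 175 and 22 bases before the start, chr2:165473198-165473447 on the minus strand for Slc13a3 (154 bases), chr13:74121163-74121412 on the plus strand for Slc9a3 (87 bases) and chr5:108674797-108675046 on the minus strand for Slc26a1 (47 bases).
Slc20a1: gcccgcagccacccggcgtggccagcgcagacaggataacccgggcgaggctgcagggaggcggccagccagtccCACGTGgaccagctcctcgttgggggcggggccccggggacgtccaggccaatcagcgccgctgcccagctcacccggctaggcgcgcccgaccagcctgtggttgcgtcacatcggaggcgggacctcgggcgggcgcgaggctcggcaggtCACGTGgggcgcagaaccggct
Slc13a3: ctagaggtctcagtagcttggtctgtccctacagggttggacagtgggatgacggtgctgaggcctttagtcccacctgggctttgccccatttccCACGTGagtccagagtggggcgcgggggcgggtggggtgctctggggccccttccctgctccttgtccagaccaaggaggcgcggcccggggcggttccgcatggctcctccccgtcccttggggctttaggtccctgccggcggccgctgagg
Slc9a3: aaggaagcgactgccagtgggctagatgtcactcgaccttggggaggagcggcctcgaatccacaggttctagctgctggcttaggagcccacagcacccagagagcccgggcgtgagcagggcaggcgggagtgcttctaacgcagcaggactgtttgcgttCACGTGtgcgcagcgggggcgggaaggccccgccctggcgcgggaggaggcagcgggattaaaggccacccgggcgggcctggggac
Slc26a1: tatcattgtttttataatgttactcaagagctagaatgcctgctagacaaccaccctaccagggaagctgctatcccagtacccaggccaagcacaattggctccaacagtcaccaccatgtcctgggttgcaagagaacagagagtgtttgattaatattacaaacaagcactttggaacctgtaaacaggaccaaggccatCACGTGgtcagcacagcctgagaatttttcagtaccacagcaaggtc

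With intact Vhl, all 10 carriers differed between AKI and Control. The AKI mice also went without water and differed from Control in sex-linked signal, which cannot be told apart from injury here. In this comparison 4 of 7 male-biased kidney genes rose and 0 fell (median 2.61). Of 4 measured female-biased ones 3 fell and 1 rose (median -2.85). Their part in the carrier differences was not tested. Of the 10 carriers, 8 fell, with log2 differences of -2.37 to -0.55, and both members of the SLC20 family rose. The deepest falls were those of the dicarboxylate carriers Slc13a2 (5.16-fold lower) and Slc13a3 (4.68-fold lower), and the clearest rise was that of the phosphate carrier Slc20a1 (3.99-fold higher). Over all genes tested, 28.1% were called in this comparison, 14.9% lower and 13.2% higher. The median difference was -1.04 over the 10 carriers and 0.02 over all genes. No AKI array overlapped a Control array for any of the 10, a separation seen in 27.3% of all genes (13.8% lower, 13.5% higher). When the sex-linked level (Xist minus the Y-linked mean) entered as covariate, 0 of the 10 carriers and 0 of all genes were called. This covariate nearly repeats the split between injured and uninjured arrays, so the fit cannot separate them. The SE of Slc34a1 went from 0.132 to 0.585 and that of Slc20a1 from 0.194 to 0.859. Genes of other nephron segments fell in the same comparison. Of the markers, 5 of 6 fell for the thick ascending limb (median -1.77), 7 of 9 for the collecting duct (median -1.05) and 3 of 5 for the distal convoluted tubule (median -0.88), and 0 rose. The fit without Control 3 called 9 carriers, all but Slc13a1 (22.7% of all genes). The fit without both Control 3 and AKI 4 called all 10 (30.1% of all genes).

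**Figure D1:**
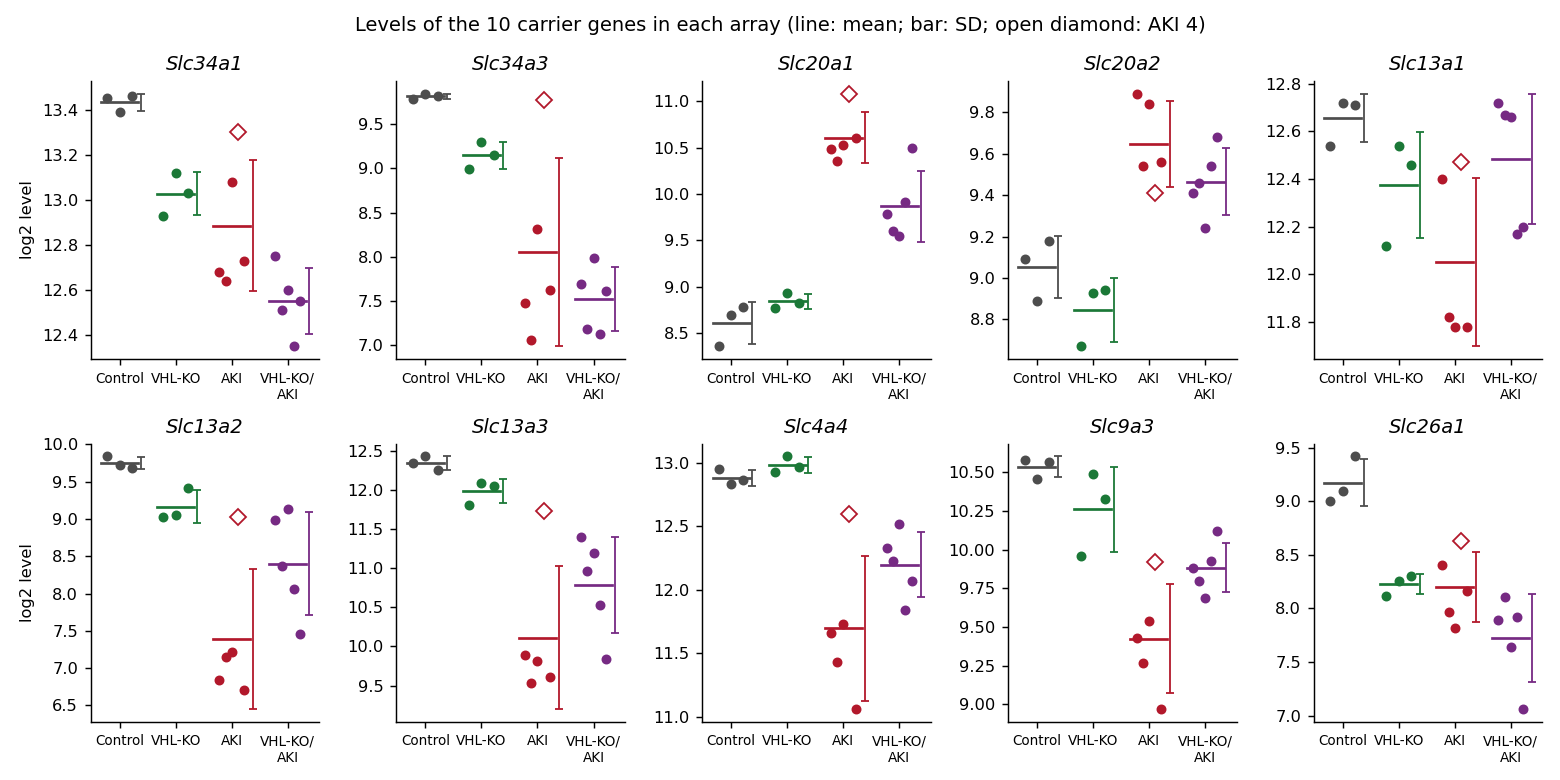
Log2 level of each carrier (y axis, own scale per gene) in each array of the 4 groups (x axis); points are arrays, lines are means, bars are SDs, and the open diamond is AKI 4. Slc20a1 lay between 8.36 and 8.93 in uninjured arrays and between 9.55 and 11.08 in injured ones, while Slc13a2 and Slc13a3 were low in the AKI arrays other than AKI 4.

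Among the phosphate carriers, Slc34a1 (probe set 10405448) encodes NaPi-IIa, the main brush border phosphate carrier. Its level was 13.45, 13.39 and 13.46 in Control and 12.68, 12.64, 13.08, 13.30 and 12.73 in AKI. All 5 AKI arrays were below all 3 Control arrays, and the fall was 0.55 (SE 0.132, limma adjusted p = 0.00606, 1.46-fold lower). Slc34a3 (probe set 10480633) encodes NaPi-IIc, another brush border carrier of the family. In Control it was at 9.78, 9.84 and 9.82, and in AKI at 7.48, 7.06, 8.31, 9.77 and 7.63. AKI 4 therefore sat at the edge of the control range, below its lowest array by no more than rounding shows, and the other 4 AKI arrays lay well under it. It fell by 1.76 (SE 0.429, limma adjusted p = 0.0064, 3.39-fold lower), and without AKI 4, when 34.2% of all genes were called, by 2.19 (adjusted p = 8.41e-06).

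The SLC20 carriers PiT-1 (Slc20a1, probe set 10475990) and PiT-2 (Slc20a2, probe set 10570837) are made in many cell types and take up phosphate for the cell's own use, PiT-2 also at the brush border. Slc20a1 was at 8.36, 8.70 and 8.78 in Control and at 10.48, 10.35, 10.53, 11.08 and 10.60 in AKI. Every AKI array lay above every Control array, and the rise of 2.00 (SE 0.194) had the smallest adjusted p of the 10 carriers, 1.06e-05 in limma. AKI 4, which was nearest to Control for the falling carriers, was the highest AKI array for Slc20a1. Slc20a2 lay between 8.89 and 9.18 in Control and between 9.41 and 9.89 in AKI, with AKI 4 the lowest. Its rise was 0.60 (SE 0.122, limma adjusted p = 0.00205, 1.51-fold higher).

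Sulphate is taken up at the brush border by NaS1 (Slc13a1, probe set 10543411) and leaves through the basolateral exchanger SAT1 (Slc26a1, probe set 10532241), which also carries oxalate. Slc13a1 lay between 12.54 and 12.72 in Control and between 11.78 and 12.47 in AKI, so that the nearest arrays of the groups almost met. Its fall of 0.61 (SE 0.187, limma adjusted p = 0.0241) was the least secure of the 10: it missed the threshold without Control 2 (adjusted p = 0.0799), Control 3 (0.0766), AKI 2 (0.0518), AKI 3 (0.0559) or AKI 5 (0.0549). Slc26a1 was at 9.0, 9.10 and 9.42 in Control and at 8.41, 7.97, 7.82, 8.63 and 8.16 in AKI. It fell by 0.98 (SE 0.212, limma adjusted p = 0.00308, 1.97-fold lower).

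Dicarboxylates such as citrate, succinate and alpha-ketoglutarate enter from the lumen through NaDC1 (Slc13a2, probe set 10388834) and from the blood side through NaDC3 (Slc13a3, probe set 10489705), which feeds organic anion exchange. Slc13a2 was at 9.84, 9.72 and 9.69 in Control and at 6.84, 7.15, 7.21, 9.02 and 6.71 in AKI. Slc13a3 was at 12.34, 12.43 and 12.26 in Control and at 9.89, 9.53, 9.81, 11.73 and 9.61 in AKI. For both genes 4 AKI arrays formed a tight low group and AKI 4 lay 2.04 (Slc13a2) and 2.02 (Slc13a3) above their mean. The fitted differences were -2.37 for Slc13a2 (SE 0.446, limma adjusted p = 0.0012) and -2.23 for Slc13a3 (SE 0.423, adjusted p = 0.00125). Without AKI 4 they were -2.78 and -2.63, which is 6.85-fold and 6.20-fold lower.

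The acid-base carriers were NBCe1 (Slc4a4, probe set 10523021), which exports bicarbonate with sodium across the basolateral membrane, and NHE3 (Slc9a3, probe set 10406176), the brush border sodium-proton exchanger. Slc4a4 was at 12.95, 12.83 and 12.86 in Control and at 11.66, 11.43, 11.73, 12.60 and 11.06 in AKI. AKI 4 again lay nearest to Control, and AKI 5 was the lowest. Slc4a4 fell by 1.19 (SE 0.241, limma adjusted p = 0.002, 2.28-fold lower). Slc9a3 lay between 10.46 and 10.58 in Control and at 9.43, 9.27, 9.54, 9.92 and 8.97 in AKI. Its fall of 1.11 (SE 0.169, limma adjusted p = 0.000266, 2.16-fold lower) had the smallest adjusted p among the carriers that fell.

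AKI 4 was the highest AKI array for 9 carriers and the lowest for Slc20a2. It stood 2.15 above the mean of the other 4 AKI arrays for Slc34a3, 1.13 for Slc4a4, and between 0.52 and 0.62 for Slc34a1, Slc20a1, Slc13a1, Slc9a3 and Slc26a1. In the same array the 12 other proximal tubule genes averaged 11.30, against 9.88 to 10.45 in the other AKI arrays, and the 6 injured tubule genes averaged 9.33, against 10.46 to 10.70. Other segments were higher in AKI 4 too. The mean was 10.49 against 8.85 to 9.22 for thick ascending limb genes, and 8.60 against 7.66 to 7.90 for distal convoluted tubule genes. For collecting duct genes it was 8.63 against 8.06 to 8.35. The neutrophil gene mean of AKI 4 was 6.43, within the 5.43 to 6.52 of the AKI group, and its macrophage gene mean was 7.22, against 7.42 to 7.91.

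**Figure D2:**
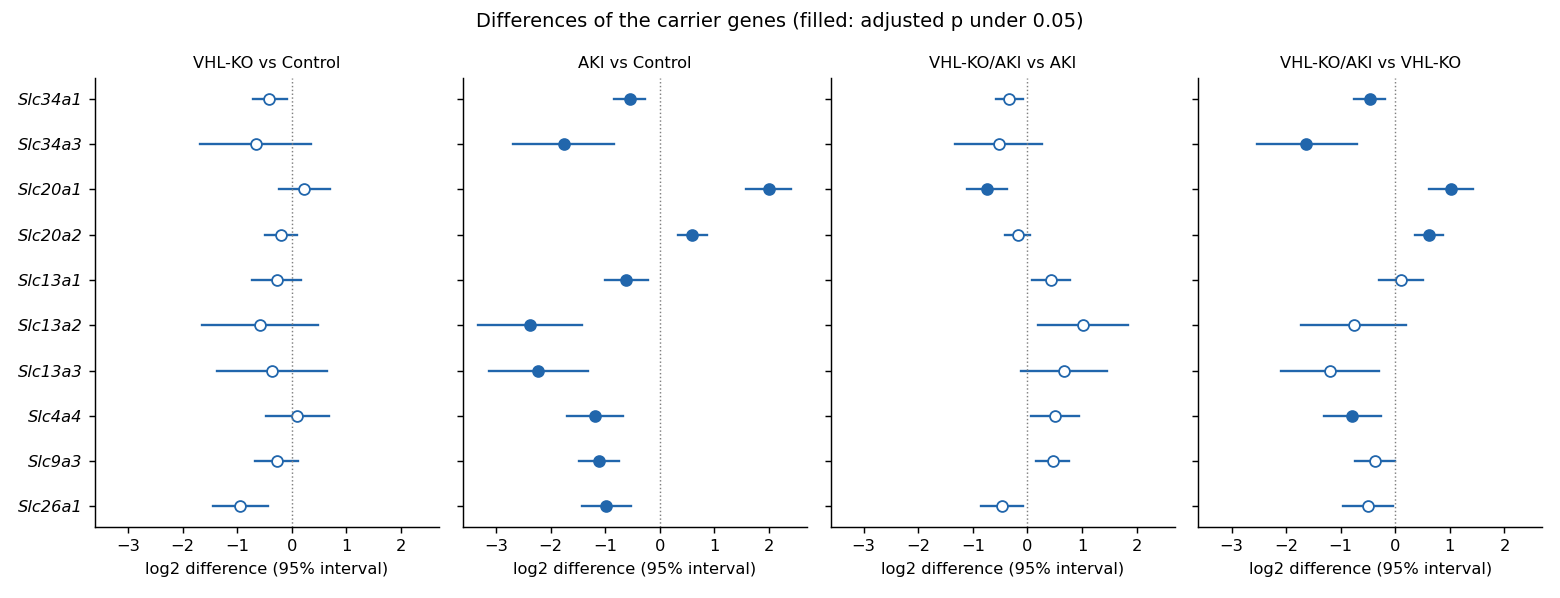
Log2 difference of each carrier (x axis, points with 95% intervals of the limma fit) in the 4 comparisons; filled points have an adjusted p under 0.05. In AKI against Control all 10 points are filled, and 8 lie to the left of 0.

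Vhl deletion without injury (VHL-KO against Control) left all 10 carriers short of the threshold: 0 were called in limma, 2 had an unadjusted p under 0.05 (Slc34a1 and Slc26a1), as did 8.35% of all genes, and 0.527% of all genes were called. By level, however, 6 carriers were lower in all 3 VHL-KO arrays than in any Control array, a separation in this direction that 5.33% of all genes showed. They were Slc34a1, Slc34a3, Slc13a1, Slc13a2, Slc13a3 and Slc26a1. The median difference was -0.32 over the 10 carriers, -0.27 over 12 other proximal tubule genes and 0.02 over all genes. The sulphate exchanger Slc26a1 had the largest difference. It was at 8.12, 8.26 and 8.30 in VHL-KO, and the lowest Control array was at 9.0. The difference of -0.95 (SE 0.237, 1.93-fold lower) had an adjusted p of 0.12 in limma. It passed the threshold without AKI 4 (0.0497, with 1.18% of all genes called), without VHL-KO/AKI 5 (0.0326), with array weights (0.0213) and in a fit of the 2 groups alone (0.0243). It did not without Control 3, the highest control array for this gene (-0.82, adjusted p = 0.437), without both Control 3 and AKI 4 (0.22) or with the sex-linked covariate (0.653), nor with any other single array left out.

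The brush border phosphate carriers were also lower in VHL-KO by value. Slc34a3 was at 8.99, 9.30 and 9.15 in VHL-KO, all below the 9.78 to 9.84 of Control. The difference was -0.66 (SE 0.48, limma adjusted p = 0.804), and in a fit of the 2 groups alone, where the spread of the AKI arrays does not enter, its SE was 0.0931 and its adjusted p 0.0307. Slc34a1 was at 12.93, 13.12 and 13.03 in VHL-KO, a difference of -0.41 (SE 0.148, adjusted p = 0.387). Both groups were narrow for these genes, with SDs of 0.03 to 0.15, so the groups did not overlap.

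Among the dicarboxylate carriers, Slc13a2 was at 9.02, 9.06 and 9.42 in VHL-KO (difference -0.59, adjusted p = 0.854) and Slc13a3 at 11.81, 12.09 and 12.05 (difference -0.36, adjusted p = 0.926). Slc13a1 was at 12.12, 12.54 and 12.46 (difference -0.28, adjusted p = 0.81), and its highest VHL-KO array and the lowest Control array both read 12.54 after rounding. The acid-base carriers overlapped between the groups. Slc4a4 was at 12.93, 13.05 and 12.97, a difference of 0.10 with a 95% interval of -0.47 to 0.68, and Slc9a3 was at 9.96, 10.49 and 10.33, a difference of -0.28 (-0.68 to 0.12). Slc20a1 differed by 0.23 (-0.23 to 0.70) and Slc20a2 by -0.20 (-0.49 to 0.09), again with overlapping arrays. The mean of the 12 other proximal tubule genes was 11.33 to 11.57 in VHL-KO against 11.77 to 11.84 in Control, and the mean of 6 endothelial genes was 9.70 to 9.92 against 9.23 to 9.35. Their part in the carrier differences was not tested.

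Vhl deletion in injured kidneys (VHL-KO/AKI against AKI) gave opposite differences within the set. Slc20a1 fell, the only carrier called of 10, while 3.88% of all genes were called and 1.40% were called lower. By value 5 carriers were higher in VHL-KO/AKI, namely the SLC13 members Slc13a1, Slc13a2 and Slc13a3 and the acid-base carriers Slc4a4 and Slc9a3. The phosphate carriers Slc34a1, Slc34a3 and Slc20a2 and the sulphate exchanger Slc26a1 were lower by value. The median difference was 0.13 over the 10 carriers and -0.01 over all genes, and the groups overlapped for all 10, whereas they did not in 3.78% of all genes.

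Slc20a1 was at 9.78, 9.60, 9.55, 9.91 and 10.49 in VHL-KO/AKI, and only VHL-KO/AKI 5 reached the AKI range of 10.35 to 11.08. It fell by 0.74 (SE 0.168, limma adjusted p = 0.0283, 1.67-fold lower). The adjusted p rose above the threshold without AKI 3 (0.0587), AKI 5 (0.0591), VHL-KO/AKI 1 (0.0783), VHL-KO/AKI 2 (0.0775) or VHL-KO/AKI 3 (0.086), and in a fit of the 2 groups alone (0.0922). It was 0.00188 without VHL-KO/AKI 5, where the fall was 0.90. Even so, Slc20a1 in VHL-KO/AKI was above all 6 uninjured arrays, whose highest value was 8.93.

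The dicarboxylate carriers had the largest differences in the other direction. Slc13a2 was at 8.98, 8.37, 9.14, 8.06 and 7.46 in VHL-KO/AKI. All 5 arrays were above the 4 lower AKI arrays (6.71 to 7.21), and AKI 4, at 9.02, was exceeded by VHL-KO/AKI 3 alone. Slc13a3 was at 11.40, 10.97, 11.19, 10.53 and 9.84, with VHL-KO/AKI 5 just below the highest of the 4 lower AKI arrays (9.89). With all arrays the differences were 1.02 (SE 0.387, limma adjusted p = 0.165) for Slc13a2 and 0.67 (SE 0.367, adjusted p = 0.352) for Slc13a3.

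Without AKI 4, 6 carriers were called in this comparison, and so were 12.0% of all genes. The same 6 were called with array weights (14.4% of all genes) or without both AKI 4 and Control 3 (2196 of the 19938 genes). AKI 4 was the highest AKI array for all 6, so the fits that leave it out are not separate checks. Without AKI 4 alone, Slc13a2 was higher by 1.43 (SE 0.263, limma adjusted p = 0.00396, 2.69-fold) and Slc13a3 by 1.08 (SE 0.231, adjusted p = 0.00882, 2.11-fold). Slc4a4, the bicarbonate exporter, was at 12.33, 12.23, 12.52, 11.84 and 12.07 in VHL-KO/AKI, all above the 4 lower AKI arrays (11.06 to 11.73). Its difference went from 0.50 (adjusted p = 0.205) with all arrays to 0.73 (adjusted p = 0.00452) without AKI 4. For Slc9a3, at 9.88, 9.80, 9.69, 9.93 and 10.12, the difference went from 0.46 (adjusted p = 0.096) to 0.58 (adjusted p = 0.00855). Slc13a1 went from 0.43 (adjusted p = 0.156) to 0.54 (adjusted p = 0.0331), and Slc20a1 was still called (-0.62, adjusted p = 0.0187). Marker means of other segments stood apart in the same arrays. Without AKI 4, the mean of 6 thick ascending limb genes was 8.85 to 9.22 in AKI and 9.30 to 10.62 in VHL-KO/AKI, and that of 9 collecting duct genes 8.06 to 8.35 and 8.26 to 9.02. The 12 other proximal tubule genes averaged 9.88 to 10.45 and 10.27 to 11.02. With all arrays, 3 of the 9 collecting duct genes and 1 of the 6 thick ascending limb genes were called higher. Over all genes, 774 of 19938 (3.88%) were then called in either direction, 279 of them lower and the rest higher. The part of these shifts in the carrier differences was not tested.

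**Figure D3:**
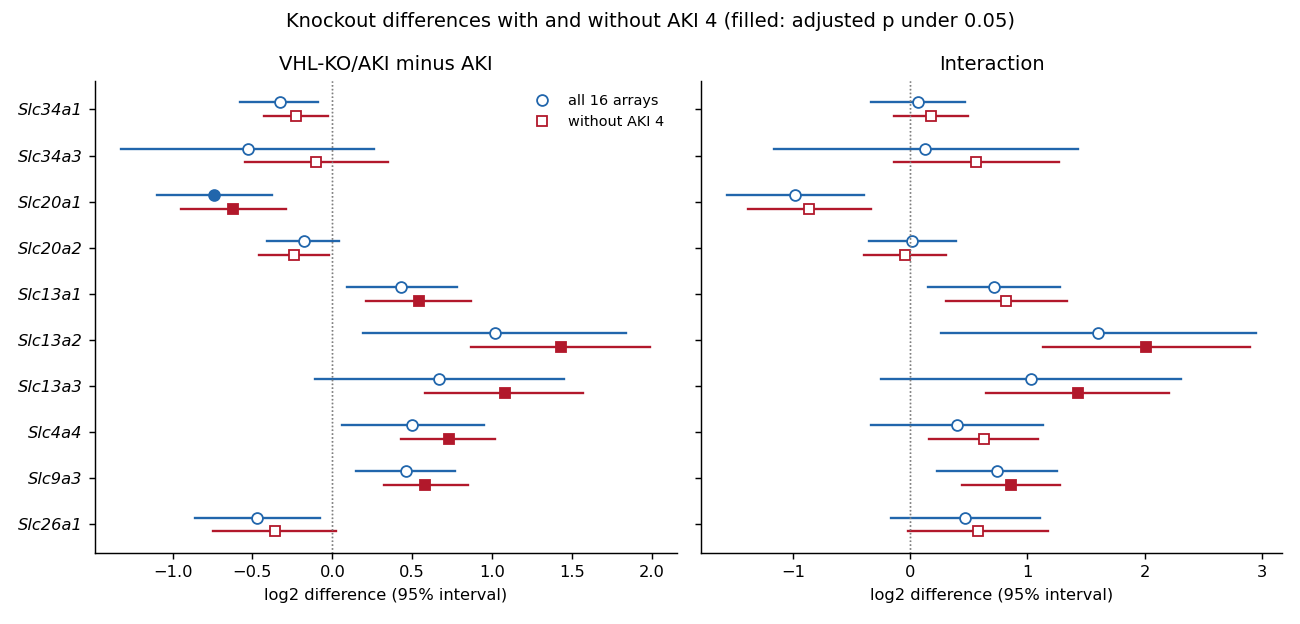
Log2 differences of each carrier (x axis, 95% intervals of the limma fit) for VHL-KO/AKI minus AKI and for the interaction, with all 16 arrays (circles) and without AKI 4 (squares); filled symbols have an adjusted p under 0.05. In the first panel the intervals of Slc13a1, Slc13a2, Slc4a4 and Slc9a3 lie to the right of 0 both with all arrays and without AKI 4. That of Slc13a3 does so only without AKI 4.

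The brush border phosphate carriers and Slc26a1 were lower by value, with and without AKI 4. Slc34a1 was at 12.75, 12.51, 12.60, 12.35 and 12.55 in VHL-KO/AKI, a difference of -0.33 (SE 0.115, limma adjusted p = 0.122) that was -0.23 (adjusted p = 0.129) without AKI 4. Slc34a3 was at 7.69, 7.19, 7.99, 7.13 and 7.61, a difference of -0.53 (95% interval -1.32 to 0.26) that was -0.10 (-0.55 to 0.35) without AKI 4. For Slc34a3 most of the difference went with AKI 4. Slc26a1 was at 7.89, 8.11, 7.64, 7.92 and 7.06, a difference of -0.47 (adjusted p = 0.174), and -0.36 (adjusted p = 0.22) without AKI 4. Slc20a2 lay between 9.24 and 9.68, a difference of -0.18 (adjusted p = 0.38). Beside these values, the mean of the 12 other proximal tubule genes ranged from 10.27 to 11.02 in VHL-KO/AKI and from 9.88 to 11.30 in AKI, the injured tubule genes from 9.31 to 10.53 and from 9.33 to 10.70, and the 5 neutrophil genes from 4.76 to 5.68 and from 5.43 to 6.52. The part of other cells in the carrier differences was not tested.

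After Vhl deletion (VHL-KO/AKI against VHL-KO), 5 of the 10 carriers were called, 2 higher and 3 lower, against 13.6% of all genes (4.66% higher, 8.91% lower). Here too, water withdrawal and sex-linked signal cannot be told apart from injury. All 4 phosphate carriers were among the 5 called. Slc20a1 rose by 1.02 (SE 0.194, limma adjusted p = 0.00316, 2.03-fold) and Slc20a2 by 0.62 (SE 0.122, adjusted p = 0.00403, 1.53-fold), whereas Slc34a3 fell by 1.63 (SE 0.429, adjusted p = 0.0208, 3.09-fold lower) and Slc34a1 by 0.47 (SE 0.132, adjusted p = 0.0272). The bicarbonate exporter Slc4a4 fell by 0.79 (SE 0.241, adjusted p = 0.0427). The sulphate, dicarboxylate and proton carriers did not pass: the differences were 0.11 for Slc13a1 (adjusted p = 0.767), -0.76 for Slc13a2 (0.299), -1.20 for Slc13a3 (0.0757), -0.37 for Slc9a3 (0.168) and -0.50 for Slc26a1 (0.139). Slc13a3 and Slc26a1 were nonetheless lower in every VHL-KO/AKI array than in any VHL-KO array, as were 14.9% of all genes. Without AKI 4, when 19.6% of all genes were called, the adjusted p of Slc13a3 was 0.00372. The median difference was -0.49 over the carriers and -0.01 over all genes.

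The rises of Slc20a1 and Slc20a2 were called whichever single array was left out, which held for no other carrier here. Leaving out VHL-KO 1, VHL-KO 2 or VHL-KO 3 left 2 carriers called each time, beside 8.80%, 9.27% and 8.44% of all genes. Slc34a1 was then at limma adjusted p values of 0.0506, 0.102 and 0.0832 and Slc34a3 at 0.0531, 0.0754 and 0.0662. Leaving out VHL-KO/AKI 2 or VHL-KO/AKI 4 left 3 called (10.5% and 10.0% of all genes), and Slc34a1 was then at 0.055 and 0.065. The fall of Slc4a4 was lost in all of these fits, with adjusted p values of 0.0712 to 0.121, and also without Control 1 (0.0535), Control 2 (0.0548), Control 3 (0.0552), AKI 1 (0.0533), AKI 3 (0.0533), VHL-KO/AKI 1 (0.0547) or VHL-KO/AKI 5 (0.0801). When the sex-linked level entered as covariate, 0 of the 10 carriers and 0 of all genes were called. Again the covariate nearly repeats the split between injured and uninjured arrays, so this fit cannot separate them.

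The interaction asks whether the knockout difference in injured kidneys departs from that in uninjured kidneys. Injured arrays also differed from uninjured ones in sex-linked signal and water withdrawal, which cannot be told apart from injury here either. In limma 0 of the 10 carriers were called, 4 had an unadjusted p under 0.05 (Slc20a1, Slc13a1, Slc13a2 and Slc9a3), as did 12.0% of all genes, and 0.0100% of all genes were called. The largest values were 1.60 for Slc13a2 (SE 0.631, adjusted p = 0.333), 1.03 for Slc13a3 (SE 0.599, adjusted p = 0.534) and -0.98 for Slc20a1 (SE 0.275, adjusted p = 0.182). Without AKI 4, when 3.11% of all genes were called, 3 carriers passed: Slc13a2 at 2.01 (adjusted p = 0.0306), Slc13a3 at 1.43 (adjusted p = 0.0481) and Slc9a3 at 0.86 (adjusted p = 0.0374). Without both AKI 4 and Control 3, 0 passed (0.110% of all genes were called). With array weights, when 4.44% of all genes were called, 5 did (the same 3, Slc13a1 and Slc20a1). Leaving out VHL-KO/AKI 5 instead gave 1 called carrier, Slc20a1 at -1.13 (adjusted p = 0.0274), beside 1.03% of all genes. For the brush border phosphate carriers the interaction was 0.07 for Slc34a1 (95% interval -0.33 to 0.47) and 0.13 for Slc34a3 (-1.16 to 1.43).

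Ordered by group mean, the carriers fell into a few shapes. Slc34a1, Slc34a3 and Slc26a1 had the order Control, VHL-KO, AKI, VHL-KO/AKI from high to low. For Slc34a1 the means were 13.43, 13.03, 12.89 and 12.55, for Slc34a3 9.81, 9.15, 8.05 and 7.52, and for Slc26a1 9.17, 8.22, 8.20 and 7.72. In all 3 genes the arrays of VHL-KO and AKI overlapped, as did those of AKI and VHL-KO/AKI. Slc13a2, Slc13a3 and Slc9a3 had the order Control, VHL-KO, VHL-KO/AKI, AKI, with means of 9.75, 9.17, 8.40 and 7.38 for Slc13a2, 12.34, 11.98, 10.79 and 10.11 for Slc13a3 and 10.54, 10.26, 9.89 and 9.42 for Slc9a3. Arrays of VHL-KO/AKI and AKI overlapped in all 3, those of VHL-KO and VHL-KO/AKI in Slc13a2 and Slc9a3, and those of Control and VHL-KO in Slc9a3. Slc4a4 differed from these only in the first pair, whose arrays overlapped (12.88 ± 0.06 in Control and 12.98 ± 0.06 in VHL-KO, n = 3 each). Slc13a1 ran from 12.66 in Control to 12.05 in AKI, with VHL-KO/AKI at 12.48 and VHL-KO at 12.37, and each neighbouring pair in this order overlapped. Slc20a1 and Slc20a2 were highest in AKI (10.61 and 9.65), then in VHL-KO/AKI (9.87 and 9.46), and these groups overlapped, with both uninjured groups lowest and overlapping each other.

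Because most proximal tubule genes were lower after injury, each carrier was also expressed as its log2 level minus the mean of the 12 other proximal tubule genes in the same array. On this relative scale Slc34a1 was 0.85 higher in AKI than in Control (95% interval 0.32 to 1.38) and Slc13a1 0.79 higher (0.25 to 1.33), so both fell less than the mean of the 12. Slc13a2 and Slc13a3 fell more than that mean, with relative differences of -0.97 (-1.54 to -0.40) and -0.83 (-1.39 to -0.27). The 12 genes themselves differed by -2.28 (Slc5a12) to -0.59 (Slc22a6), so that Slc13a3 (-2.23) and Slc13a1 (-0.61) lay inside their spread, and Slc13a2 (-2.37) and Slc34a1 (-0.55) just outside it. Slc34a3 (-0.36), Slc4a4 (0.21), Slc9a3 (0.28) and Slc26a1 (0.42) had intervals that included 0. Without AKI 4, when 98.1% of all genes were called, the intervals of Slc34a3 (-0.57, -1.01 to -0.13) and Slc26a1 (0.54, 0.09 to 0.98) excluded 0. Slc20a1 and Slc20a2 were 3.39 and 1.99 higher. These shifts are against a falling reference, and 96.0% of all genes were called on the relative scale. An interval that excludes 0 shares this limit, so the values only place a carrier against the mean of the 12 genes.

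On the same scale 0 carriers were called for VHL-KO/AKI against AKI, where 0.456% of all genes were. The carriers nevertheless spread to both sides. Slc13a2 was 0.74 higher (95% interval 0.25 to 1.23), whereas Slc20a1 was at -1.02 (-1.55 to -0.49), Slc34a3 at -0.81 (-1.32 to -0.30), Slc26a1 at -0.75 (-1.24 to -0.26) and Slc34a1 at -0.61 (-1.07 to -0.15). Slc4a4 (0.23), Slc9a3 (0.18), Slc13a1 (0.16), Slc13a3 (0.39) and Slc20a2 (-0.46) had intervals that included 0. In VHL-KO against Control the interval of every carrier included 0. Slc26a1 was at -0.62 (-1.25 to 0.02), Slc34a3 at -0.33 and Slc34a1 at -0.08 (-0.67 to 0.52). Slc13a2 was at -0.25, Slc13a3 at -0.02 and Slc13a1 at 0.05, and for these SLC13 genes the arrays of the groups overlapped on this scale. Slc20a1 (0.57), Slc4a4 (0.43), Slc20a2 (0.13) and Slc9a3 (0.05) were higher by value. Without AKI 4, when 78.6% of all genes were called in VHL-KO/AKI against AKI, the relative differences were 0.93 for Slc13a2, -1.12 for Slc20a1, -0.60 for Slc34a3, -0.87 for Slc26a1 and -0.73 for Slc34a1. The intervals of Slc13a3 (0.58, 0.22 to 0.93) and Slc20a2 (-0.74, -1.12 to -0.36) then excluded 0 as well, and those of Slc4a4, Slc9a3 and Slc13a1 did not.

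**Figure D4:**
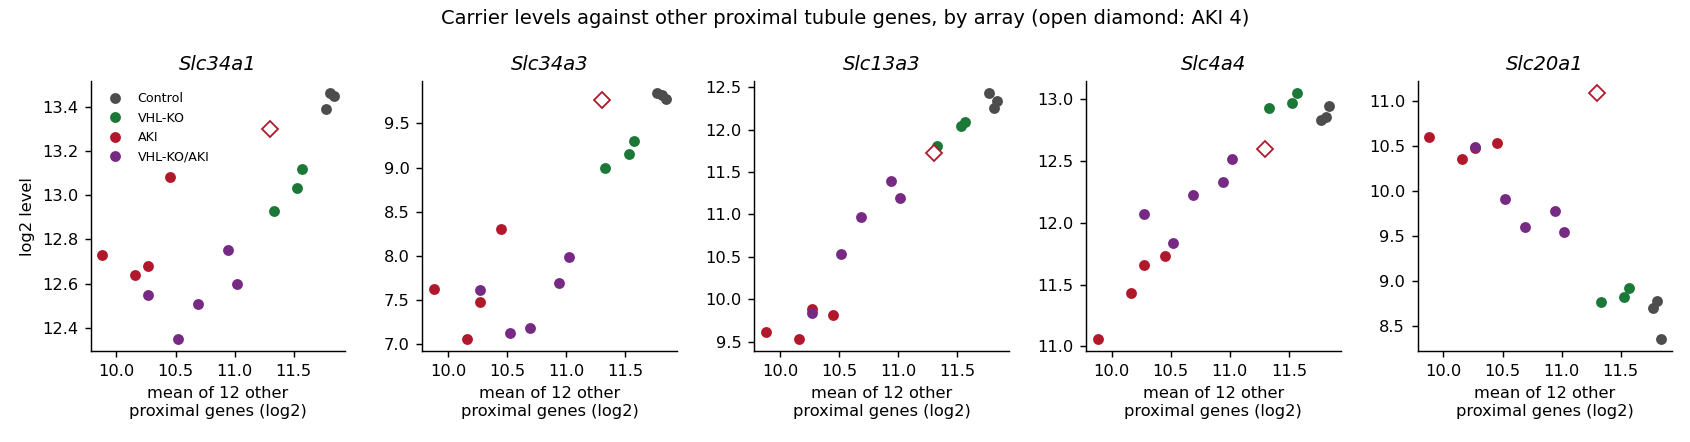
Log2 level of 5 carriers (y axes) against the mean log2 level of 12 other proximal tubule genes (x axes), 1 point per array, coloured by group, with AKI 4 as an open diamond. Slc4a4 and Slc13a3 lie near a line through all groups, Slc34a1 in VHL-KO/AKI lies below AKI arrays of like proximal level, and Slc20a1 in AKI 4, at 11.08, lies high although its proximal mean was 11.30.

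The genes around the carriers were taken from lists chosen with earlier results of these data known. Over all genes, 14.9% were called lower and 13.2% higher in AKI against Control. In VHL-KO against Control 0.527% of all genes were called, and in VHL-KO/AKI against AKI 3.88%. Of 16 measured genes of phosphate regulation, 7 fell and 0 rose in AKI against Control (median -0.49, against 0.02 over all genes). Pdzk1, a scaffold protein that binds NaPi-IIa and NHE3 at the brush border, fell by 2.00 (SE 0.424, limma adjusted p = 0.0026). The FGF23 co-receptor Kl fell by 1.83 (adjusted p = 0.0012), the parathyroid hormone receptor Pth1r by 1.17 (adjusted p = 0.00106) and the vitamin D receptor Vdr by 0.96 (adjusted p = 0.0037). In both knockout comparisons the only called gene of this list was Stc2, a stanniocalcin, which was higher by 0.47 in VHL-KO against Control (adjusted p = 0.0159) and by 0.33 in VHL-KO/AKI against AKI (adjusted p = 0.0117).

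Of 12 measured genes of proximal bicarbonate reclamation and ammonia formation, 6 fell and 1 rose in AKI against Control (median -0.25). The shares over all genes were 14.9% called lower and 13.2% called higher. The membrane carbonic anhydrases Car14 and Car4 fell by 2.18 (adjusted p = 0.00907) and 1.52 (adjusted p = 0.0262), the proton exchanger Slc9a8 by 1.62 (adjusted p = 0.00016) and the gluconeogenic enzyme Pck1 by 1.04 (adjusted p = 0.00759). Ezr, which encodes the brush border linker ezrin, rose by 0.38 (adjusted p = 0.00788). In VHL-KO/AKI against AKI, Pck1 was 1.32 higher (SE 0.226, limma adjusted p = 0.00633, 2.50-fold), while Car2, the cytosolic carbonic anhydrase, was lower (-0.43, adjusted p = 0.039), as was Ezr (-0.38, adjusted p = 0.0244). The list median there was 0.14.

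Dicarboxylate, citrate and sulphate handling held 15 measured genes, of which 8 fell and 0 rose in AKI against Control (median -0.51). Beside them, 14.9% of all genes were called lower and 13.2% higher. Papss2, which makes the active sulphate donor, fell by 1.98 (adjusted p = 0.000663), the organic anion carrier Slc22a8 by 1.27 (adjusted p = 0.00243), sulphite oxidase Suox by 1.13 (adjusted p = 0.00278) and the mitochondrial dicarboxylate carrier Slc25a10 by 1.06 (adjusted p = 0.0132). In VHL-KO against Control and in VHL-KO/AKI against AKI, 0 of the 15 were called, beside 0.527% and 3.88% of all genes.

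Relatives of the carriers in the SLC4, SLC9, SLC13, SLC26 and SLC34 families gave 11 falls and 0 rises among 27 measured genes in AKI against Control (median -0.22). In this comparison 14.9% of all genes were called lower and 13.2% higher. Slc4a1, the anion exchanger of acid-secreting intercalated cells, fell by 2.45 (adjusted p = 2.58e-05), Slc26a4 (pendrin, of the bicarbonate-secreting cells) by 1.37 (adjusted p = 0.005) and Slc9a9 by 0.83 (adjusted p = 0.00077). Slc9a8 is shared with the bicarbonate list. In VHL-KO against Control, Slc4a11 was 1.11 higher (adjusted p = 0.0212), and in VHL-KO/AKI against AKI, Slc4a9 was lower (-0.59, adjusted p = 0.00705). Among the 12 proximal tubule genes that are no member, 11 fell in AKI against Control (median -1.30), led by the lactate carrier Slc5a12 (-2.28, adjusted p = 0.00196), the water channel Aqp1 (-1.93, adjusted p = 0.00173), the endocytic receptor Cubn (-1.63, adjusted p = 0.000335) and the glucose carrier Slc2a2 (-1.57, adjusted p = 0.00258). In VHL-KO/AKI against AKI 0 of these 12 were called, beside 3.88% of all genes, with a median of 0.35.

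**Figure D5:**
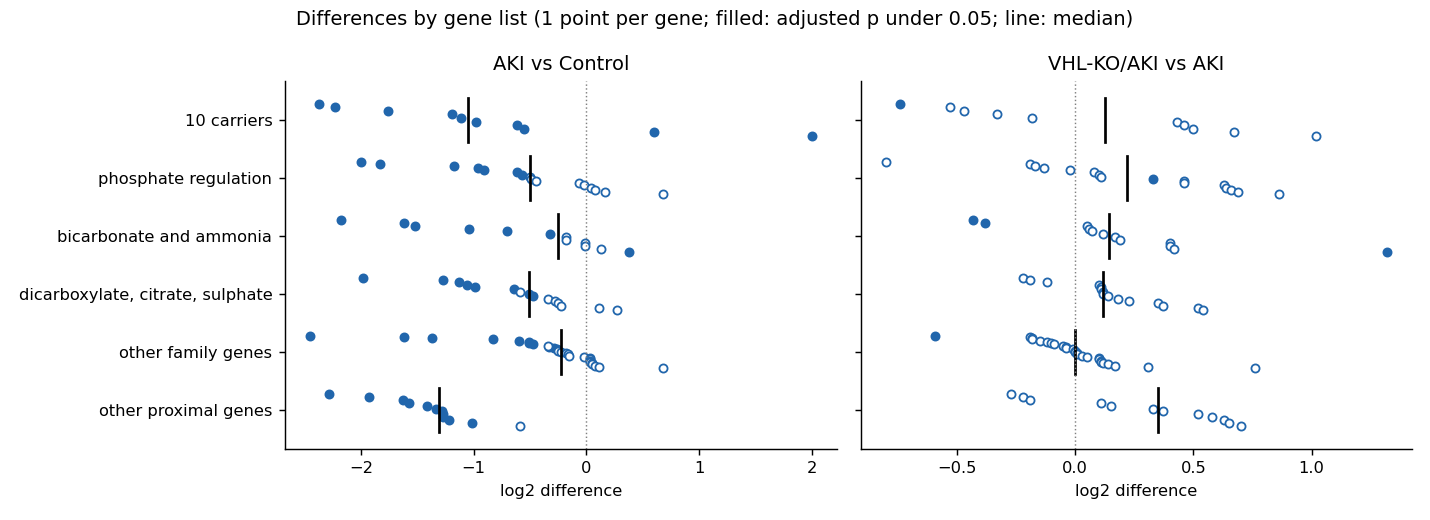
Log2 differences (x axis, 1 point per gene) of the 10 carriers and of 5 lists of related genes in AKI against Control and VHL-KO/AKI against AKI; filled points have an adjusted p under 0.05 in limma and vertical lines are list medians. The carrier median was -1.04 in the first comparison and 0.13 in the second.

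Likeness between genes was measured as the root mean square difference of their levels over the 16 arrays, each gene centred on its own mean, as a description without a test. These arrays share the step between injured and uninjured kidneys. Within the set the closest pair was Slc13a2 with Slc13a3 (0.25), followed by Slc4a4 with Slc9a3 (0.292). Among all other genes tested, the 2 nearest to Slc13a3 were Pdzk1 (0.197) and Car12 (0.206), and those nearest to Slc13a2 were Galnt11 (0.226) and Cmbl (0.237). Slc4a4 was nearest to Nnt (0.16) and Fah (0.161), and Slc9a3 to Bcas3 (0.174) and Atp6v0a4 (0.176). The phosphate carriers had other neighbours, Lmo4 (0.138) and Dnajc6 (0.142) for Slc34a1, Fam151a (0.269) and Eci3 (0.349) for Slc34a3, Mapk6 (0.215) and Dusp8 (0.216) for Slc20a1, and Kif1b (0.102) and Ctsd (0.103) for Slc20a2. For the sulphate carriers they were Trappc9 (0.155) and Esr1 (0.157) for Slc13a1 and Plekha6 (0.285) and Slc36a1 (0.304) for Slc26a1.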

How the data were processed

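Kidney RNA of 16 mice in 4 groups, taken from the sample titles, was measured on whole-transcript arrays. The authors deposited log2 probe set levels, from 3.34 to 14.71. RMA, a background correction and summary method, and Partek 6.4 are named per the submitters' processing notes, with their order, settings and genome build not given in the sources used here. How replicates were processed together by the authors could affect the spread between arrays and was not tested.

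Of 35556 rows, 21789 carried 1 gene symbol, 1621 several and 12146 none. Rows with 1 symbol gave 19938 genes, and for the 999 genes with several rows the row with the highest mean was used. The reference gene table held the Entrez identifier of 21698 single-symbol rows and changed 0 symbols. Array medians lay between 5.92 and 6.03 and 0 pairs of arrays were identical. One limma model (version 3.58.1, R 4.3.3) held all 4 groups (12 residual and 2.83 prior degrees of freedom), each comparison 2-sided, with Benjamini-Hochberg adjustment over all genes, after the code was tested on simulated data. Relative levels were fitted the same way after subtracting the mean of the 12 proximal tubule genes from every gene.

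The members and all lists (161 genes, 149 measured) were chosen with earlier results of these data known. Genes named are all 10 carriers, Vhl, up to 4 called genes per list and comparison with the largest difference, and the 2 genes most like each carrier. Ezr, Car2, Slc4a9, Slc4a11, Stc2 and Slc9a8 fall under this rule, and Xist and the Y-linked genes were added as a check. Alternatives were other rows, a filter on dim genes (10960 left), 3 scalings, another variance model, array weights, the compared groups alone, the replicate block, a sex-linked covariate and each array left out. The number of arrays limits the precision, and p-values measure the spread between labelled biological replicates.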

Additional observations from a re-analysis of the deposited data

Results flagged for a closer look

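The level of Slc13a2 in AKI 4 was 9.02, while the other 4 AKI arrays lay between 6.71 and 7.21. Its gap to the nearest of them was 0.783 of the group's whole range, above Dixon's limit of 0.71 for 5 samples. The level of Slc13a3 in AKI 4 was 11.73, while the other 4 lay between 9.53 and 9.89, a gap of 0.837 of the range. The test was run on 20 groups (10 carriers in each group of 5 arrays) and marked these 2, where chance marks about 1 in 20. The carriers share the same arrays, and Slc13a2 and Slc13a3 were the closest pair among them. The 20 tests and the 2 marks are therefore not independent, and their number cannot be set against that rate. In the same array the 12 other proximal tubule genes averaged 11.30 against 9.88 to 10.45 in the other AKI arrays. Means of thick ascending limb, distal convoluted tubule and collecting duct genes were also higher in it than in those arrays. The part of these shifts in the flagged values was not tested.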

How the results depend on the processing

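Scaling moved the median of all genes by at most 0.07. The share of all genes called is given in brackets after each count. The number of carriers called in VHL-KO against Control was 0 in the reported fit (0.527%), 1 with array weights (1.60%) and 2 with the compared groups only (0.587%). It was 0 to 1 with each array left out (0.171% to 1.18%). In AKI against Control it was 10 (28.1%), 0 with the sex-linked covariate (0%), and 9 to 10 with each array left out (21.3% to 34.2%). In VHL-KO/AKI against AKI it was 1 (3.88%), 6 with array weights (14.4%) and 0 with the compared groups only (1.12%). It was 6 without both Control 3 and AKI 4 (2196 of the 19938 genes), an alternative chosen after seeing the data. The relative scale was also chosen after seeing the data. With each array left out it was 0 to 6 (1.15% to 12.0%). In VHL-KO/AKI against VHL-KO it was 5 (13.6%), 0 with the sex-linked covariate (0%), and 2 to 6 with each array left out (8.44% to 19.6%). For the interaction it was 0 (0.0100%), 5 with array weights (4.44%), and 0 to 3 with each array left out (0% to 3.11%). The cause was not tested, except that the covariate follows injury and that leaving out arrays leaves fewer samples. The fall of Slc13a1 in AKI against Control was lost with the compared groups only (adjusted p = 0.0523) and that of Slc4a4 in VHL-KO/AKI against VHL-KO with arrays centred on their medians (0.0556).

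With the replicate number as a block, 0, 9, 1 and 3 carriers were called in the 4 comparisons in the order above and 0 for the interaction. The shares of all genes called were 0.326%, 22.7%, 3.56%, 9.64% and 0.00502%. The deviations of same-numbered arrays correlated at -0.38 to 0.20, with 3 of 20 pairs over 0.1. These values gave no sign that the numbers pair the animals, but cannot exclude it.

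Signs turned as follows. With the sex-linked covariate, Slc4a4 was at -0.02 in VHL-KO against Control, and in VHL-KO/AKI against VHL-KO Slc20a2 was at -0.05, Slc13a1 at -0.04, Slc13a2 at 0.58, Slc13a3 at 0.004 and Slc9a3 at 0.11. Slc13a1 was at -0.01 in that comparison without VHL-KO 1 and between -0.01 and 0.19 over all single arrays left out. The interaction of Slc34a3 was -0.01 without AKI 1 and -0.11 without AKI 2, and at most 0.56 with an array left out. That of Slc20a2, 0.02 in the reported fit, was -0.02 with array weights, -0.08 with the covariate, -0.1 without both Control 3 and AKI 4, and -0.07 to -0.0021 without Control 3 (-0.05), VHL-KO 1, AKI 2 (-0.01), AKI 4 (-0.04), AKI 5 or VHL-KO/AKI 5 (-0.03).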
